A study of Mus musculus with 6 samples.

Results

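Genes of white blood cells, chiefly of the myeloid lineage (monocytes, macrophages, microglia and neutrophils), were followed in cells sorted from mouse gliomas. The set holds 44 genes named for this purpose, and a gene entered through a probe set that the array annotation gives exactly 1 symbol, the brightest of them where there were several. This left 42 of the 22180 genes measured; Lyn, a kinase of leukocyte receptors, and Cd74, the chaperone of MHC class II, were not analysed here. The set was named with earlier results of these arrays known, so its counts are descriptions and support no claim about leukocyte genes in general.

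RNA of 6 mice was hybridized to 1 Affymetrix array each. All 6 mice carried the floxed Pfn1 genotype Pfn1fl/fl:Y129F, where Pfn1 encodes the actin-binding protein profilin-1; 3 mice (1, 3 and 4) also carried Tie2-Cre and the other 3 (6, 7 and 10) had no Cre. Cells were sorted magnetically by an antibody to CD105, the endoglin protein, are labelled as tumor-associated endothelial cells, and spent 12 h in glioma-conditioned medium before RNA extraction. The age and the strain of the mice are not given in the sources used here, nor is how Cre acts on the Y129F allele. The Tie2 promoter is known to be active in blood-forming cells as well as in endothelium, and CD105 is also found on activated macrophages. Whether leukocytes carried a recombined allele or passed the sort here was not tested. Values are log2 of the authors' RMA intensity (the level), changes are the Tie2-Cre mean minus the no Cre mean on that scale, and a gene was called where limma's Benjamini-Hochberg adjusted p over all 22180 genes lay under 0.05.

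Myeloid cells are recognised by a layered set of genes. The transcription factor PU.1, encoded by Spi1, drives the lineage with Irf8, and the receptor Csf1r keeps macrophages and microglia alive. Mature phagocytes add Fc receptors that signal through the small adaptors Fcer1g and Tyrobp, scavenger receptors, lysosomal proteins and the oxidase that makes superoxide. In gliomas, microglia of the brain and macrophages that enter from the blood make up much of the non-tumor tissue.

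The promoters of Cd53, Cd68 and Lyz2 are shown because these were the members with the largest changes, all 3 of them lower with Tie2-Cre. Sequences are from RefSeq on GRCm38.p6, read 5′ to 3′ in the direction of the gene, from 250 bases before to 30 bases after its start. Capitals mark the letters GAGGAA, the core of the site that PU.1 is known to bind, on either strand, and in Cd53 also the longer GAGGAAGT on the other strand, where it reads ACTTCCTC and overlaps a match of the shorter core.
Cd53, chr3:106790120-106790399, minus strand: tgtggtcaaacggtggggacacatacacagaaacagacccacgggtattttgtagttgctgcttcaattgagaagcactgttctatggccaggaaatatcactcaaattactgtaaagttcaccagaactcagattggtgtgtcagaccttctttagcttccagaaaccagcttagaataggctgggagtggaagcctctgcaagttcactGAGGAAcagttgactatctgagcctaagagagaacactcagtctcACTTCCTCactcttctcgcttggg
Cd68, chr11:69666141-69666420, minus strand: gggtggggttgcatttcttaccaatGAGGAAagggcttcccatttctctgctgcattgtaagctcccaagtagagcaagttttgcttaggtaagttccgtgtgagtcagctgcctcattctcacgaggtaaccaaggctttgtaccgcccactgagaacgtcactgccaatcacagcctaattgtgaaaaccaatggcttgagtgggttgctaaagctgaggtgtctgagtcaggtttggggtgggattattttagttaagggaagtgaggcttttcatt
Lyz2, chr10:117282243-117282522, minus strand: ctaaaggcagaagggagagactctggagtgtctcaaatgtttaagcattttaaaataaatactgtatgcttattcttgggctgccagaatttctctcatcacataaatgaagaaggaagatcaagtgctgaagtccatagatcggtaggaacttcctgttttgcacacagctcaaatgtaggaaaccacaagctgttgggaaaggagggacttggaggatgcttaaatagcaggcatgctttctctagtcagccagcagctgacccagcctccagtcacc

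The Cd53 promoter held GAGGAAGT starting at base 7 after the start, and a separate GAGGAA 39 bases before the start. In Cd68 the match of GAGGAA within the printed bases began 225 bases before the start, and the printed window of Lyz2 held neither motif. Promoters of 300 bases (50 of them after the start in place of 30) were given for 33 of the 42 members, with 41 start sites between them. GAGGAA on either strand was in 23 of these 41 promoters (56.1%) against 28.3% of all 32851 promoters, and GAGGAAGT in 6 (14.6%) against 3.2%. GAGGAAGT occurred in Cd53, Ly6c2 and S100a8, which were lower with Tie2-Cre, and in Cd37 and Vav1, which were not called. These matches describe letters in a window and not binding.

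The level of most members was modest. The mean over all 6 arrays ran from 4.36 for the scavenger receptor Msr1 to 10.15 for the tetraspanin Cd53, with a median of 6.61 against 7.12 over all genes. Of the 42, 13 (31%) lay above the median of all genes and 10 below its lower quartile of 5.90; 2 lay above the upper quartile of 8.70, which were Cd53 and the surface protein gene Ly6c2 (8.87). By group, 14 members lay above the group's own median of all genes with Tie2-Cre and 14 without Cre. Probe sets differ in brightness, and the values have no detection calls, so a level places a gene on the array but does not say whether it is expressed. As a guide to what an unexpressed gene can read, the Y-linked Uty, Eif2s3y and Kdm5d read 4.80, 4.68 and 5.29 in the no Cre mice, where Xist was high (11.35), and Xist read 5.75 with Tie2-Cre. This guide rests on 4 sex-linked genes, and unexpressed genes may read higher on other probe sets. The 18 further lymphocyte genes described below had mean levels from 4.24 to 7.28, and whether they were expressed is not known.

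**Figure D1:**
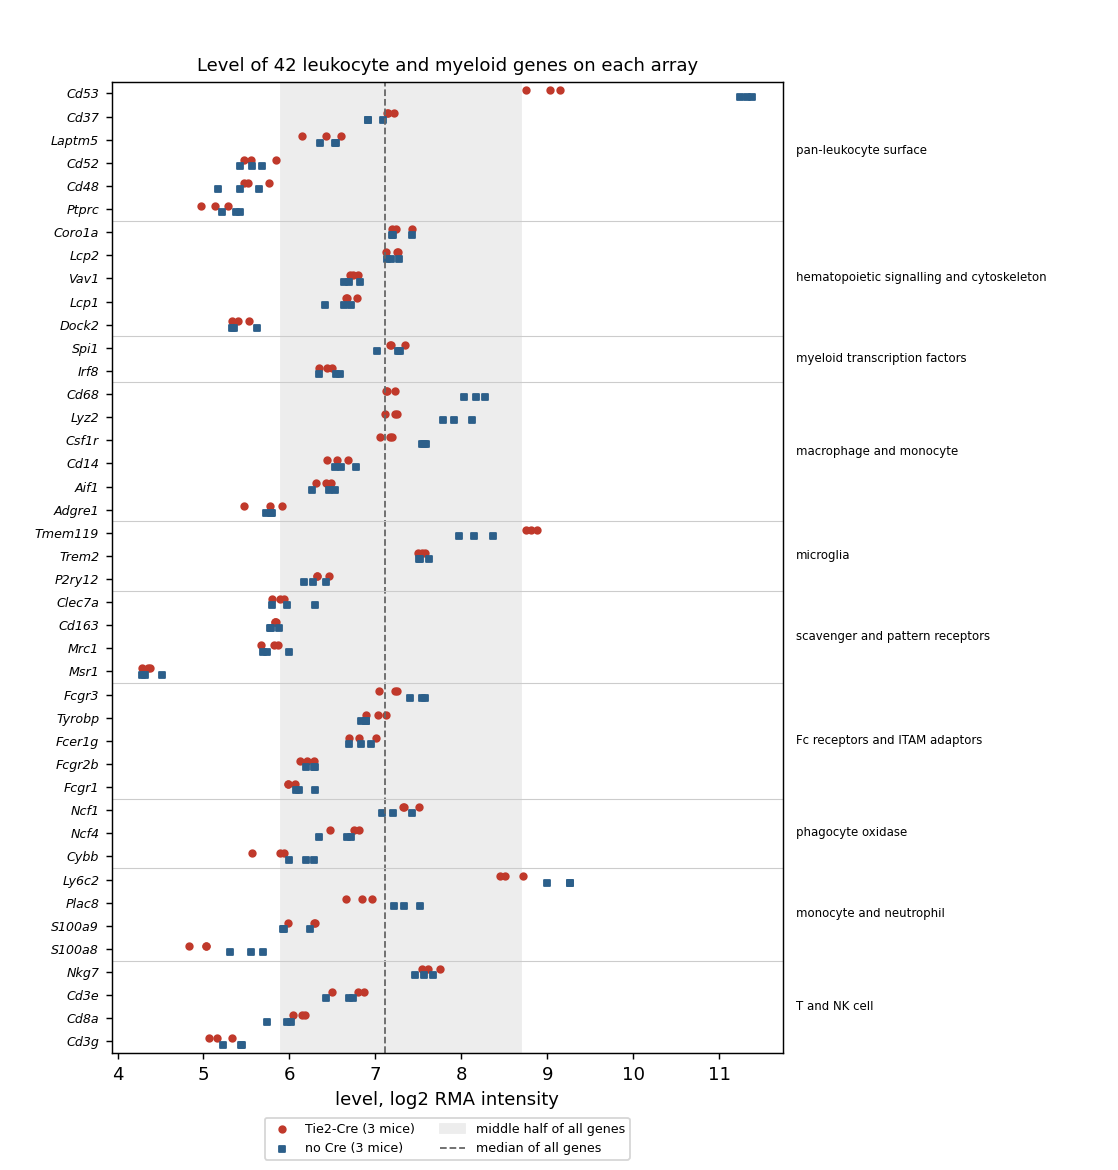
Level of each member (log2 RMA intensity, horizontal axis) on each array, ordered by role, with Tie2-Cre mice as circles and no Cre mice as squares. The dashed line is the median of all genes (7.12) and the shaded band runs from the lower quartile (5.90) to the upper (8.70); Cd53 stands far to the right of every other member in the no Cre mice.

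Levels differed widely within the roles. Among the 6 pan-leukocyte surface genes, Cd53 was the brightest of all members at 10.15, Cd37 lay at 7.07 and Laptm5 at 6.43, and Ptprc was the dimmest of the 6. Ptprc, which encodes CD45, the phosphatase on all nucleated blood cells, read 5.28, 4.97 and 5.14 in Tie2-Cre mice 1, 3 and 4 and 5.21, 5.43 and 5.38 in no Cre mice 6, 7 and 10. These groups overlapped, and the mean of 5.23 stood at percentile 15.4 of all genes. Low values were also seen for the surface genes Cd52 (5.59) and Cd48 (5.50) and, in other roles, for the Rac activator Dock2 (5.43), the macrophage receptor Adgre1, known as F4/80 (5.75), and the T cell receptor subunit Cd3g (5.28). Spi1 (7.21), Csf1r (7.35), the actin-binding Coro1a (7.28), the microglial receptor Trem2 (7.54) and the cytotoxic granule protein Nkg7 (7.60) lay just above the median of all genes. A level does not tell which of the sorted cells gave the signal. The number of leukocytes, the RNA per leukocyte and expression by other sorted cells cannot be told apart.

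Between the groups, 9 of the 42 members were called: 1 was higher with Tie2-Cre, 8 were lower and 33 did not pass. Over all genes 4.78% were called higher and 7.17% lower (12% in either direction), against 2.38% and 19% (21.4%) of the members. In 13 members, 3 higher and 10 lower, the 3 Tie2-Cre arrays all lay to the same side of the 3 no Cre arrays, a pattern that 31% of all genes showed. The median change over the 42 was -0.01, beside -0.0042 over all genes. The mean over the members was lower on all 3 Tie2-Cre arrays (6.54 to 6.62) than on any no Cre array (6.68 to 6.73). That mean includes the called members, among them Cd53 with a change of -2.34. The median change over all 42 was close to that over all genes, so the lower mean does not describe a shift of the whole set. The 33 members not called had a median change of 0.01. They were picked by missing the threshold, so their median cannot decide this. The count of lower members was 5 in place of 8 when mouse 7 or mouse 10 of the no Cre group was left out, and 1 member was higher in both cases.

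**Figure D2:**
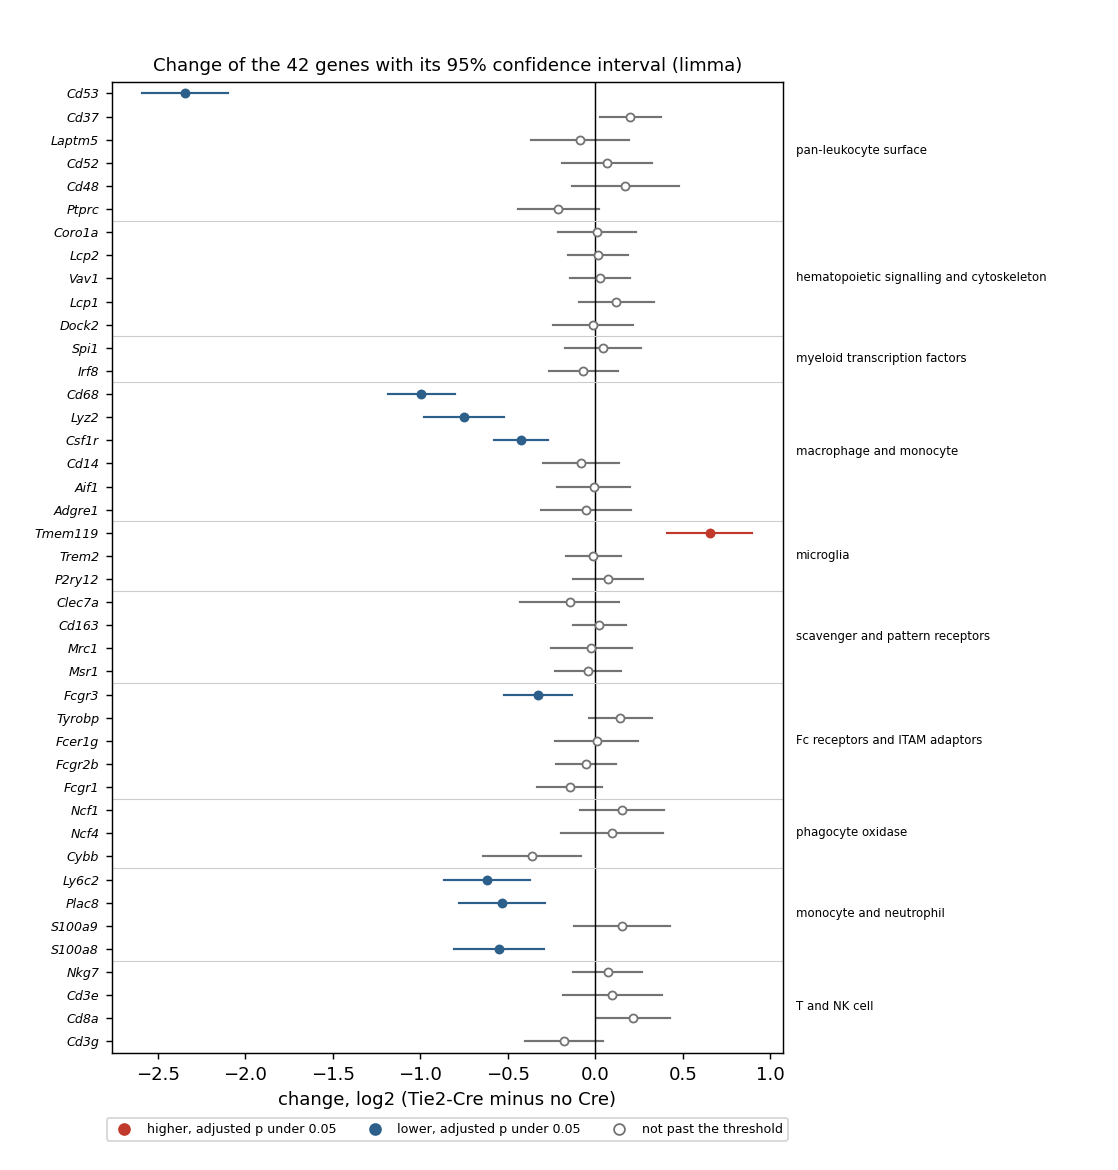
Change of each member (log2, Tie2-Cre minus no Cre, horizontal axis) with its 95% confidence interval from limma, ordered by role. Filled points passed the threshold (8 lower, 1 higher) and open points did not (33); Cd53 lies at -2.34, and the intervals of the open points reach from -0.64 to 0.48.

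Cd53, a tetraspanin of the leukocyte surface, had the largest change of the set. It read 9.03, 9.15 and 8.75 in Tie2-Cre mice 1, 3 and 4 and 11.25, 11.33 and 11.39 in no Cre mice 6, 7 and 10. All 3 Tie2-Cre arrays lay more than 2 log2 units below the lowest no Cre array. The change was -2.34 (SE 0.11, limma adjusted p 1.56e-05), a 5.07-fold lower intensity, and Cd53 was the only member called with a change of at least 2-fold. The other 5 pan-leukocyte surface genes showed no such step: Ptprc changed by -0.21 (adjusted p 0.242), Laptm5, a lysosomal protein of blood cells, by -0.09 (0.730), Cd52 by 0.07 (0.782), Cd48 by 0.17 (0.488) and Cd37, another tetraspanin, by 0.20 (0.145, all limma). Set against the mean of these 5 genes on the same array, Cd53 was higher by 2.91, 3.27 and 2.82 with Tie2-Cre and by 5.35, 5.36 and 5.41 without Cre. Ptprc, Cd52 and Cd48 lay within or near the range read by unexpressed genes above (4.68 to 5.75), where a change would be hard to see, so they do not show whether the amount of leukocyte RNA differed. Cd37 and Laptm5 lay above that range, but it rests on 4 sex-linked genes and need not hold for their probe sets.

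Lower signals were also seen for 3 of the 6 macrophage and monocyte genes. Cd68, a lysosomal glycoprotein abundant in macrophages, read 7.23, 7.14 and 7.13 with Tie2-Cre and 8.27, 8.17 and 8.03 without Cre. The groups were well apart, and the change was -0.99 (SE 0.082, limma adjusted p 0.000288). Lyz2, the lysozyme of phagocytes, read 7.22, 7.25 and 7.11 with Tie2-Cre and 8.13, 7.92 and 7.79 without Cre, a change of -0.75 (SE 0.098, limma adjusted p 0.00234). Csf1r, the receptor for CSF1 and IL-34, read 7.17, 7.20 and 7.06 with Tie2-Cre and 7.57, 7.54 and 7.58 without Cre. The no Cre mice agreed closely here, and the change was small at -0.42 (SE 0.068, limma adjusted p 0.00594). The other 3 genes of this role had overlapping groups: the macrophage receptor Adgre1 changed by -0.05, Aif1, which encodes the microglial marker Iba1, by -0.01, and the endotoxin co-receptor Cd14 by -0.08 (limma adjusted p 0.670 to 0.966).

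Of the 4 monocyte and neutrophil genes, 3 were lower. Ly6c2, a surface protein of inflammatory monocytes that some endothelial cells also carry, read 8.50, 8.72 and 8.46 with Tie2-Cre and 8.996, 9.27 and 9.27 without Cre (change -0.62, SE 0.11, limma adjusted p 0.00813). Plac8, a small cysteine-rich protein of myeloid and epithelial cells, read 6.66, 6.96 and 6.85 with Tie2-Cre and 7.22, 7.34 and 7.52 without Cre (change -0.53, SE 0.11, limma adjusted p 0.0156). S100a8, a subunit of the neutrophil protein calprotectin, read 5.03, 4.84 and 5.03 with Tie2-Cre and 5.31, 5.55 and 5.69 without Cre (change -0.55, SE 0.11, limma adjusted p 0.0163). The groups did not overlap in any of these 3 genes. S100a8 was dim in both, and all its values lay within the range read by unexpressed genes above (4.68 to 5.75). Whether S100a8 was expressed is therefore not known. Its partner S100a9, which encodes the other subunit, overlapped between the groups and changed by 0.15 (adjusted p 0.505). Leaving out mouse 7 or 10 of the no Cre group ended the calls of Plac8 (limma adjusted p 0.0513 and 0.0547) and S100a8 (0.0605 and 0.0546), and leaving out mouse 3 of the Tie2-Cre group also ended that of S100a8 (0.0564).

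**Figure D3:**
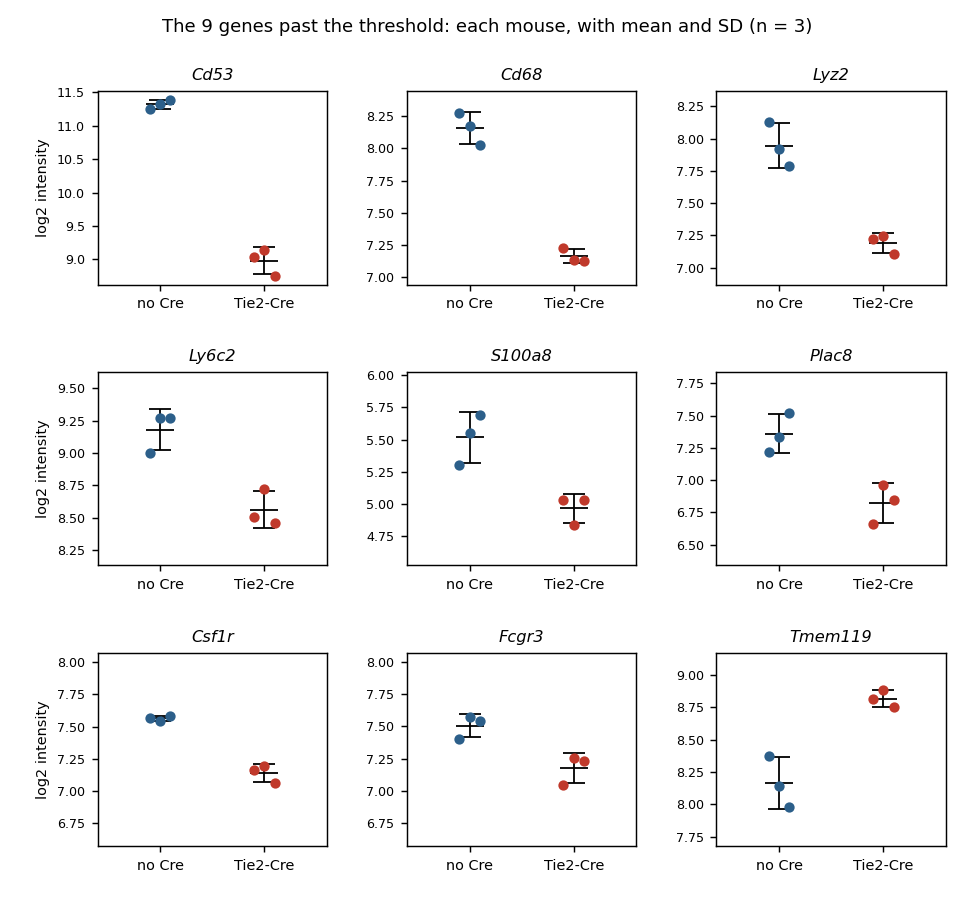
Level of the 9 called members (log2 RMA intensity, each panel with its own vertical axis) in each mouse, with the mean and SD of 3 mice per group. No Cre points lie above all Tie2-Cre points in 8 panels, and below them for Tmem119.

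Fc receptors and their adaptors held 1 call among 5. Fcgr3, a low-affinity receptor for IgG, read 7.05, 7.26 and 7.23 with Tie2-Cre and 7.41, 7.57 and 7.54 without Cre. The change was -0.33 (SE 0.085, limma adjusted p 0.0433), and its call was lost when any of the 6 mice was left out (adjusted p 0.0563 to 0.137) and with each array centred on its median (0.0582). The high-affinity receptor Fcgr1 changed by -0.15 (adjusted p 0.317), with groups that did not overlap. Fcgr2b, the inhibitory receptor, changed by -0.05 (adjusted p 0.734). The adaptors through which activating receptors signal, Fcer1g and Tyrobp, changed by 0.01 (adjusted p 0.975) and 0.14 (adjusted p 0.315).

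Among the 3 phagocyte oxidase genes none passed by limma, and 1 had an unadjusted p under 0.05, as had 5524 of all 22180 genes. Cybb, the membrane subunit that carries electrons, read 5.89, 5.94 and 5.56 with Tie2-Cre and 6.29, 6.19 and 5.99 without Cre. Its groups did not overlap, and the change of -0.36 (95% confidence interval -0.64 to -0.08) had an adjusted p of 0.103 in limma. The cytosolic subunits Ncf1 and Ncf4 changed by 0.15 and 0.10 (adjusted p 0.434 and 0.709).

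The only member called higher was Tmem119, used as a microglial marker in the brain and also known from bone-forming cells. It read 8.82, 8.88 and 8.75 in Tie2-Cre mice 1, 3 and 4 and 8.37, 8.15 and 7.98 in no Cre mice 6, 7 and 10. The Tie2-Cre arrays were all higher, with a change of 0.65 (SE 0.11, limma adjusted p 0.00609). The other microglial genes did not pass: the ADP receptor P2ry12 changed by 0.07 (adjusted p 0.676) and the lipid-sensing receptor Trem2 by -0.01 (adjusted p 0.952).

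The remaining roles showed no call. The transcription factors Spi1 and Irf8 changed by 0.04 and -0.07 (limma adjusted p 0.839 and 0.697), with overlapping groups. Spi1 read 7.35, 7.18 and 7.17 with Tie2-Cre and 7.02, 7.27 and 7.28 without Cre. A further probe set of Irf8, the only member with several, gave 0.09 in place of -0.07. The 5 genes of leukocyte signalling and the cytoskeleton, which were the adaptor Lcp2, the Rac activators Vav1 and Dock2, the actin bundler Lcp1 and Coro1a, changed by -0.01 to 0.12. The scavenger and pattern receptors Mrc1, Cd163, Msr1 and Clec7a changed by -0.15 to 0.02. The T and NK cell genes Cd3e, Cd3g, Cd8a and Nkg7 changed by -0.18 to 0.22. Of these 15 genes, the groups did not overlap in Cd8a alone, which read 6.15, 6.18 and 6.04 with Tie2-Cre and 5.97, 6.02 and 5.73 without Cre (adjusted p 0.194).

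A call that is missing does not show that a gene stayed the same, but the intervals bound it. In all 33 members that did not pass, the 95% confidence interval of the change excluded a 2-fold difference in either direction, and in 32 it excluded 1.5-fold. The exception was Cybb, whose interval reached -0.64. By limma 3 of the 33 had an unadjusted p under 0.05: Cybb, Cd37 and Cd8a. Over all genes, 5524 of 22180 had one. Background signal compresses the change of a dim gene, and 27 of the 33 had a mean level under the median of all genes, against 2 of the 9 that passed, so the bounds are on intensity and not on RNA.

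**Figure D4:**
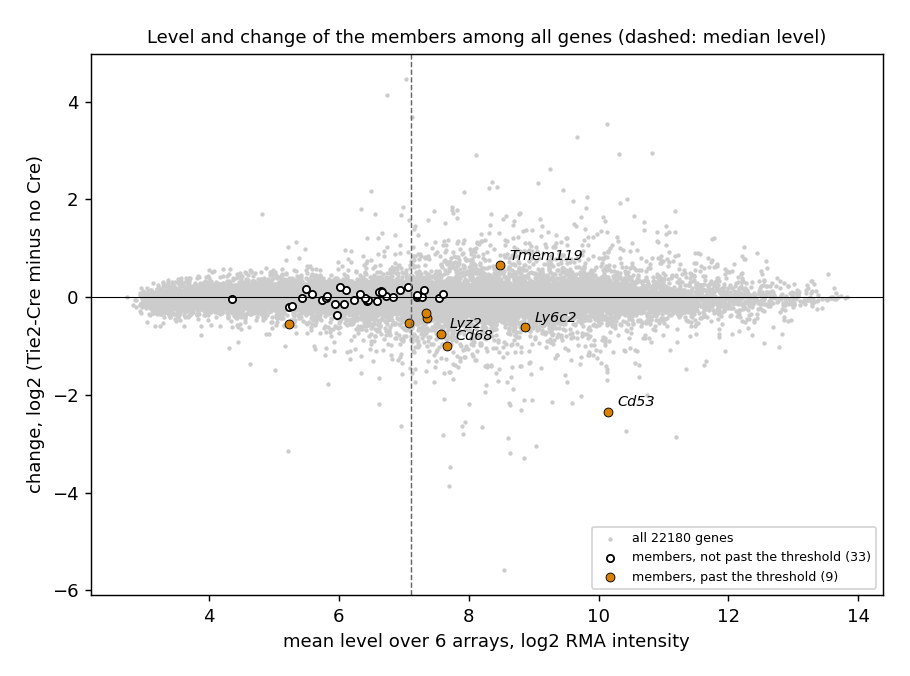
Change (log2, Tie2-Cre minus no Cre) against the mean level over 6 arrays (log2 RMA intensity) for all 22180 genes in grey, the 33 members that did not pass as open circles and the 9 that did as filled circles. The open circles gather left of or near the dashed median level and close to 0, while Cd53 lies at a level of 10.15 and a change of -2.34.

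Other genes of the same cells were read from lists written from textbook knowledge. Calls were made for 13 of 125 further leukocyte genes, 8 of them higher and 5 lower, while 112 missed the threshold (10.4% called, beside 12% of all genes), and their median change was 0.01. Among 27 pan-leukocyte genes, 3 were higher and 2 lower. Arhgdib changed by 0.85 (SE 0.084, limma adjusted p 0.000708), Itga4, an integrin subunit also found outside blood cells, by -1.37 (SE 0.21, limma adjusted p 0.00446), the kinase Syk by 0.70 and the cortactin relative Hcls1 by 0.75. The integrin subunits Itgb2, Itgal, Itgam and Itgax did not pass. They changed by -0.05, -0.01, 0.15 and 0.28 (limma adjusted p 0.782, 0.957, 0.352 and 0.125), and the groups did not overlap in Itgax. These subunits and the complement genes below were named after their values were seen.

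Of 33 further macrophage and microglia genes, 3 were higher and 0 lower by limma. An unadjusted p under 0.05 was seen for 6 of the 33, beside 5524 of all 22180 genes. The higher ones were the membrane glycoprotein Gpnmb (1.14, SE 0.085, adjusted p 0.000183), the lipid carrier Apoe (0.69, SE 0.088) and the pattern receptor Tlr2 (0.73, SE 0.18). The others with an unadjusted p under 0.05 all changed downwards: Cd80 by -0.28, Lgals3 by -0.27 and Folr2 by -0.37. Lgals3 and Folr2 were named after their values were seen. In this list of 33, 6 genes lay lower without overlap of the groups and 4 higher. Over all genes, 17.5% lay lower without overlap and 13.6% higher. The median change of the list was -0.02. With trended and robust eBayes, 1 gene of the list was called lower in place of 0. With probe sets without a single symbol added, 2 genes of the list were higher in place of 3. Complement C1qa, C1qb and C1qc, which macrophages make in quantity, changed by -0.02, -0.08 and -0.09 at levels of 7.08, 7.21 and 5.47. The members Cd68 and Lyz2 fell while Gpnmb and Apoe, also abundant in macrophages, rose. Of 9 MHC class II genes 1 was lower, the peptide exchange factor H2-DMb1 (-0.46, SE 0.085, adjusted p 0.0115). Of 6 further oxidase genes 1 was higher, Cyba, the partner of Cybb in the membrane (0.44, SE 0.11, adjusted p 0.0429). The call of Cyba was lost with probe sets without a single symbol added.

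Of 19 further Fc receptor and ITAM pathway genes, 1 was higher (Syk, counted above too) and 1 lower, the phospholipase Plcg2 (-0.29, SE 0.073, adjusted p 0.0400). The call of Plcg2 was lost with each array centred on its median and with probe sets without a single symbol added. Granulocyte and mast cell genes held 1 rise and 1 fall among 19. The mast cell protease Cpa3 read 5.71 on average without Cre and 7.40 with Tie2-Cre (change 1.70, SE 0.14, limma adjusted p 0.000279). The other mast cell genes Mcpt4, Tpsb2, Cma1, Ms4a2 and Fcer1a, named after their values were seen, changed by -0.18 to 0.16. Their mean levels, from 3.85 for Mcpt4 to 5.48 for Tpsb2, lay within or below the range read by unexpressed genes above. A change would be hard to see there, so these genes do not show whether mast cell RNA differed. The gelatinase Mmp9 was lower (-0.44, SE 0.098, adjusted p 0.0248), a call lost with probe sets without a single symbol added. Of 18 further lymphocyte genes, 0 passed in limma and 0 had an unadjusted p under 0.05, beside 5524 of all 22180 genes. The ligands of Csf1r did not pass, with Csf1 at a level of 13.29 (change 0.13, adjusted p 0.278) and Il34, named after its values were seen, at 7.47 (0.12, adjusted p 0.556). The factors Csf2 and Csf3 both changed by 0.23 (adjusted p 0.385 and 0.115), while stem cell factor, Kitl, was lower (-2.14, SE 0.076).

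**Figure D5:**
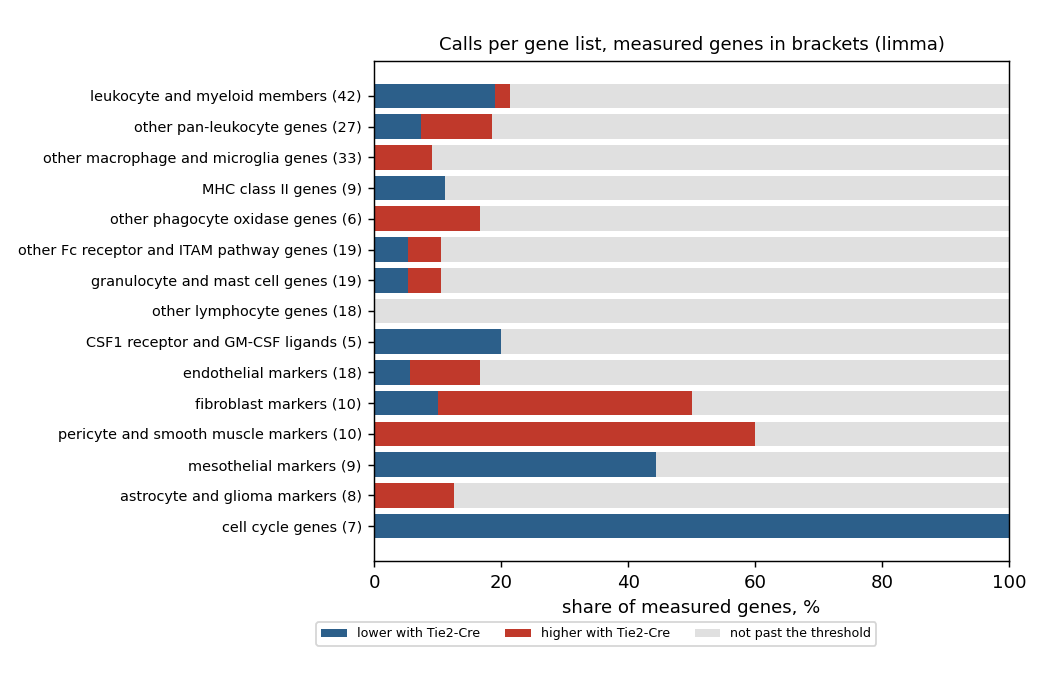
Share of the measured genes of each list (percent, horizontal axis) that were lower, higher or not past the threshold with Tie2-Cre in limma, with the number measured in brackets. Of the 42 members 8 were lower and 1 higher, while 0 of the 18 further lymphocyte genes passed and all 7 cell cycle genes were lower.

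Several other signals moved with the groups, and their part in the changes of the members was not tested. Xist (change -5.59) and the Y-linked Uty, Eif2s3y and Kdm5d (3.70 to 4.47) separated the same mice, so Tie2-Cre and sex cannot be told apart. Of 18 endothelial markers 4 lay above the median level of all genes, with Eng, the gene of the sort antigen, at 11.91, against 8 of 10 fibroblast and 9 of 10 pericyte and smooth muscle markers. Of the endothelial markers 1 was lower with Tie2-Cre, Eng (-0.30), and 2 were higher, the surface protein gene Ecscr (1.18, limma adjusted p 0.000686) and the VEGF receptor Flt1 (1.11, 0.0272). With mouse 6, 7 or 10 of the no Cre group left out, 1 endothelial marker was higher in place of 2. The mean level per array of the endothelial list was 6.80 to 6.90 with Tie2-Cre and 6.74 to 6.76 without Cre. That mean includes Flt1 and Ecscr, and the median change of the list was 0.01. For fibroblasts the mean level was 9.58 to 9.66 with Tie2-Cre and 9.30 to 9.32 without Cre. For pericytes and smooth muscle it was 9.88 to 10.08 with Tie2-Cre and 9.45 to 9.50 without Cre. For 9 mesothelial markers it was 6.94 to 7.10 with Tie2-Cre and 7.81 to 7.93 without Cre, with 4 lower and 0 higher by limma. Of the 10 pericyte and smooth muscle markers 6 were higher and 0 lower, and of the 10 fibroblast markers 4 were higher and 1 lower. All 7 cell cycle genes were lower (-1.05 to -0.62). With probe sets without a single symbol added, 6 cell cycle genes were lower and 4 pericyte and smooth muscle markers higher. In that fit 1 endothelial marker was higher and 0 lower, so the call of Eng was lost. Median levels of the arrays were 7.08 to 7.14, and Pearson's r across genes was at least 0.994 within groups.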

How the data were processed

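RNA of 6 mice, 3 per group, was measured on Affymetrix Mouse Gene 2.0 ST arrays. The authors deposited linear intensities, made by RMA per the labels and with Affymetrix Expression Console per the submitters' processing notes; its version and a genome build are not given in the sources used here. RMA corrects background and normalizes by quantiles, so no further scaling was applied, and log2 was taken. Of 41345 probe sets, 23521 had 1 gene symbol, and the brightest per symbol left 22180 genes. Identifiers of the 42 members all were found among mouse RefSeq genes (GRCm38.p6), and 0 symbols were updated. The groups were compared in R 4.3.3 by version 3.58.1 of limma (lmFit, then eBayes; two-sided, unpaired, all 6 arrays), after reading with data.table (version 1.17.8). Each array is a separate mouse, array batches and scan dates are not given in the sources used here, and precision is limited by how few arrays there are: the SD of a gene had a median of 0.10 with Tie2-Cre and 0.089 without Cre. Promoter letters were searched on both strands.

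The members and the lists were chosen with earlier results of these data known. Named were all members and up to 4 genes of each other list with the smallest p; further names are said to follow their values. Alternatives were another quantile normalization, median centring, adding probe sets without a single symbol, 2 filters on dim genes (a mean log2 of at least 5, and the dimmest 33.3% left out), averaging a gene's probe sets, array weights, trended and robust eBayes, and leaving out each mouse. On simulated data of 22180 genes in these groups, limma called 45 of 67 genes with a true change of 0.5 log2, 61 of 67 with one of 1 log2 and 65 of 66 with one of 2 log2. Only these genes were shifted, far fewer than the 12% called in the data, which makes the adjusted threshold stricter. The SD seen in each gene was also taken as its true SD. The shares recovered therefore check the code and do not give the power of the comparison made here.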

Additional observations from a re-analysis of the deposited data

How the results depend on the processing

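Of the 9 members called, 6 kept their call and direction under every one of the 14 alternatives run: Cd53 (-2.43 to -2.23), Cd68 (-1.06 to -0.94), Lyz2 (-0.83 to -0.66), Ly6c2 (-0.71 to -0.57), Csf1r (-0.45 to -0.38) and Tmem119 (0.56 to 0.76). Fcgr3, Plac8 and S100a8 kept their direction and lost the call under 8, 3 and 4 alternatives, among them the addition of probe sets without a single symbol, where more tests are adjusted for. That addition left 5 members lower, and 2 of the further leukocyte genes lower in place of 5. With a mouse left out, 5 to 7 members were lower and 1 higher, and 2 to 4 further leukocyte genes were lower and 6 to 8 higher. The median change of the members was -0.05 to 0.01 in these fits. The number of members above the median level was 13 or 14 wherever it was recomputed. None of the 33 other members passed under any alternative, and 15 of them changed sign in at least 1. No paired analysis was possible because the mouse numbers of the groups differ. A filter on dim genes leaves out the members below it, so those gave no value there. Dim members are limited by background, and 3 mice per group limit all of them.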

Other observations

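The families of the called members were read after their values were seen. Cd53 belongs to the tetraspanins, membrane proteins that gather others into patches, and 30 of them were measured. Of these, 3 were higher and 2 lower with Tie2-Cre by limma. The lower ones were Cd53 (-2.34) and the uroplakin Upk1b, from 10.49 without Cre to 7.20 with Tie2-Cre (-3.29, SE 0.16, adjusted p 2.41e-05). The widely expressed Cd9 (0.48, SE 0.088), Cd81 (0.28, SE 0.068) and Cd151 (0.29, SE 0.072) were higher, and Cd63, at a level of 12.43, changed by -0.04 (adjusted p 0.801). The median over the family was 0.01.

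Of 12 measured Ly6 family genes, Ly6c2 was the only one called. Its close relative Ly6c1 read 4.29 with Tie2-Cre and 4.40 without Cre (change -0.10, adjusted p 0.845), and probes of such similar genes may share signal. Lyz1, the lysozyme gene nearly identical to Lyz2, read 6.63 and 6.59 (change 0.05, adjusted p 0.856), where Lyz2 changed by -0.75.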
